A study of Mus musculus with 15 samples.

Results

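The genes described here encode parts of the motile cilium: 45 mouse symbols chosen by name for the axoneme, its dynein motors, ciliary transport and the switches of ciliogenesis. Of these, 43 had a row in the count table of 24054 genes, and all 43 passed the filter on low counts that kept 15905 genes for testing. The symbols Dnah3 and Dnah12 matched no row. RNA had been sequenced from the whole lungs of 15 wild type female Balb mice in 3 groups of 5. Mice of the Saline Isotype group underwent a sham sensitisation with saline and had the isotype control antibody. The OVA Isotype group was sensitised by intraperitoneal ovalbumin (OVA), challenged with nebulised OVA as a model of allergic asthma, and given the isotype control. The OVA aIL4Ra group received the same allergen with a monoclonal antibody against mouse IL-4Ra, a subunit of the receptors for the type 2 cytokines IL-4 and IL-13, at 30 mg/kg. Ages, dose times and the time of sampling had not been given in the sources used here. The questions were how levels of these genes differed between allergen and saline lungs, and between allergen lungs with and without the antibody.

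Motile cilia cover the multiciliated cells of the conducting airways and beat to move mucus and trapped particles out of the lung. Each cilium is built on an axoneme of microtubule doublets around a central pair. Outer and inner dynein arms slide the doublets against each other, nexin links and radial spokes turn sliding into bending, and intraflagellar transport carries the building blocks. The program is switched on in airway epithelium by Foxj1 and by transcription factors of the RFX family, whose X-box sites lie before many cilia genes. In whole lung RNA the airway is a small part of the tissue, and fewer ciliated cells and less RNA per ciliated cell cannot be told apart.

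Promoter windows from RefSeq (GRCm38.p6), reaching from 250 bases before to 50 bases after the annotated start, were found for 39 of the 43 genes. Those of Foxj1, Tppp3, Rsph1 and Rsph4a were not. The X-box core GTTGCC, searched on both strands, was in 23 of the 39 windows (59%), against 14.1% of the windows of 27025 genes. The longer X-box form, in which a looser core faces its mirror on the other strand across a short gap, was in 4 (10.3%), those of Hydin, Spag16, Tekt4 and Pifo, against 0.936% of all windows. The forms overlap, since a longer form often contains the core. The forkhead core TAAACA was in 11 (28.2%), against 15.1%. A match is a description of letters, not of a bound site. The 250 bases before the start are printed below for Spag16, which holds a core on each strand, and for Lrrc23, Dnah10 and Dnah8, whose levels differed between groups. Capitals mark X-box cores alone, not the rest of a longer form, read as GTTGCC or on the other strand as GGCAAC, and in Dnah8, whose window held none, the forkhead core. The windows lie at chr1:69826720-69826969 on the plus strand, chr6:124779728-124779977 on the minus strand, chr5:124724835-124725084 on the plus strand and chr17:30626686-30626935 on the plus strand.
Spag16: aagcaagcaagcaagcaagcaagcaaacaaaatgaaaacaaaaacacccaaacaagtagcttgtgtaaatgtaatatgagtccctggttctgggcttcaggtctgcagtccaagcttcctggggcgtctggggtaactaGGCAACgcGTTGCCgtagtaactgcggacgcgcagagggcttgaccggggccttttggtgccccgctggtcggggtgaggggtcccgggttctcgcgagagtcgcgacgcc
Lrrc23: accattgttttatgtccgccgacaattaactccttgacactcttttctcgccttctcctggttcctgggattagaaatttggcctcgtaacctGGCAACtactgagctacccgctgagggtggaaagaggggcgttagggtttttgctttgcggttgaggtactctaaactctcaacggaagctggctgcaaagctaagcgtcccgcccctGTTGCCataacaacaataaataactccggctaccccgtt
Dnah10: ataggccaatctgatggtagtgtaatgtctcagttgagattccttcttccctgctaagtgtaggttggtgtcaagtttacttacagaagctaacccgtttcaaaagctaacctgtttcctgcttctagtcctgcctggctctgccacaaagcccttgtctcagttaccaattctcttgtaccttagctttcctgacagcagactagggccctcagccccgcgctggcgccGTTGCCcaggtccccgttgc
Dnah8: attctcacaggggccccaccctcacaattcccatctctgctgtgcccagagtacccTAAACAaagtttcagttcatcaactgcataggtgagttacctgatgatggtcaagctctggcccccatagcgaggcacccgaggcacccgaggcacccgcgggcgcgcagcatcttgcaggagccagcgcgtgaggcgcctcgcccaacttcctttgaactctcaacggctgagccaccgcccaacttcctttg

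Library totals of expected counts were 16774300 to 27570700 in the saline group, 10042800 to 14706100 in the OVA Isotype group and 12317800 to 16914500 in the OVA aIL4Ra group. The share of counts on Rn45s, the ribosomal RNA precursor, was 1.19 to 2.88% in saline libraries and 4.31 to 12.4% in OVA Isotype libraries, without overlap, and 1.65 to 12.4% with anti-IL-4Ra. Group and Rn45s share therefore cannot be fully told apart. Levels below are CPM, counts relative to the library total, on totals scaled by the trimmed mean of M values, given for replicates 1 to 5 in that order, and folds are log2 fold changes ± SE from edgeR. Calls were made where p, adjusted over all genes tested, was under 0.05. No cilia gene was at 0 in any library, and the lowest single value was 1.40 CPM, for Ccno.

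Before any comparison of groups, the cilia genes differed between animals of 1 group, and they did so together. Their summed level in saline libraries was 1350.2, 2624, 1049, 1181 and 1311 CPM, so replicate 2 stood far above the other 4. In that library 41 of the 43 genes were at their highest saline level, where 18.8% of all tested genes were, and the median gene stood 2.46-fold above the median of the other 4 saline libraries. Replicate 3 held the lowest saline value of 32 genes. Summed levels in OVA Isotype libraries were 1904, 1741, 2701, 1899.9 and 2282 CPM. Replicate 3 was highest for 32 genes (21.6% of all genes) and replicate 2 lowest for 31.

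The widest range was under anti-IL-4Ra, with sums of 2541, 945, 3055, 1471 and 1815 CPM. Replicate 3 was highest for 39 genes and replicate 2 lowest for 35, against 15.2% and 17.1% of all genes. Between animals, the median SD of log2(CPM + 1) over the cilia genes was 0.59 with saline, 0.37 with OVA and 0.77 with anti-IL-4Ra. Over all genes it was 0.18, 0.28 and 0.28. The heat map shows these libraries as whole columns that are high or low.

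**Figure D1:**
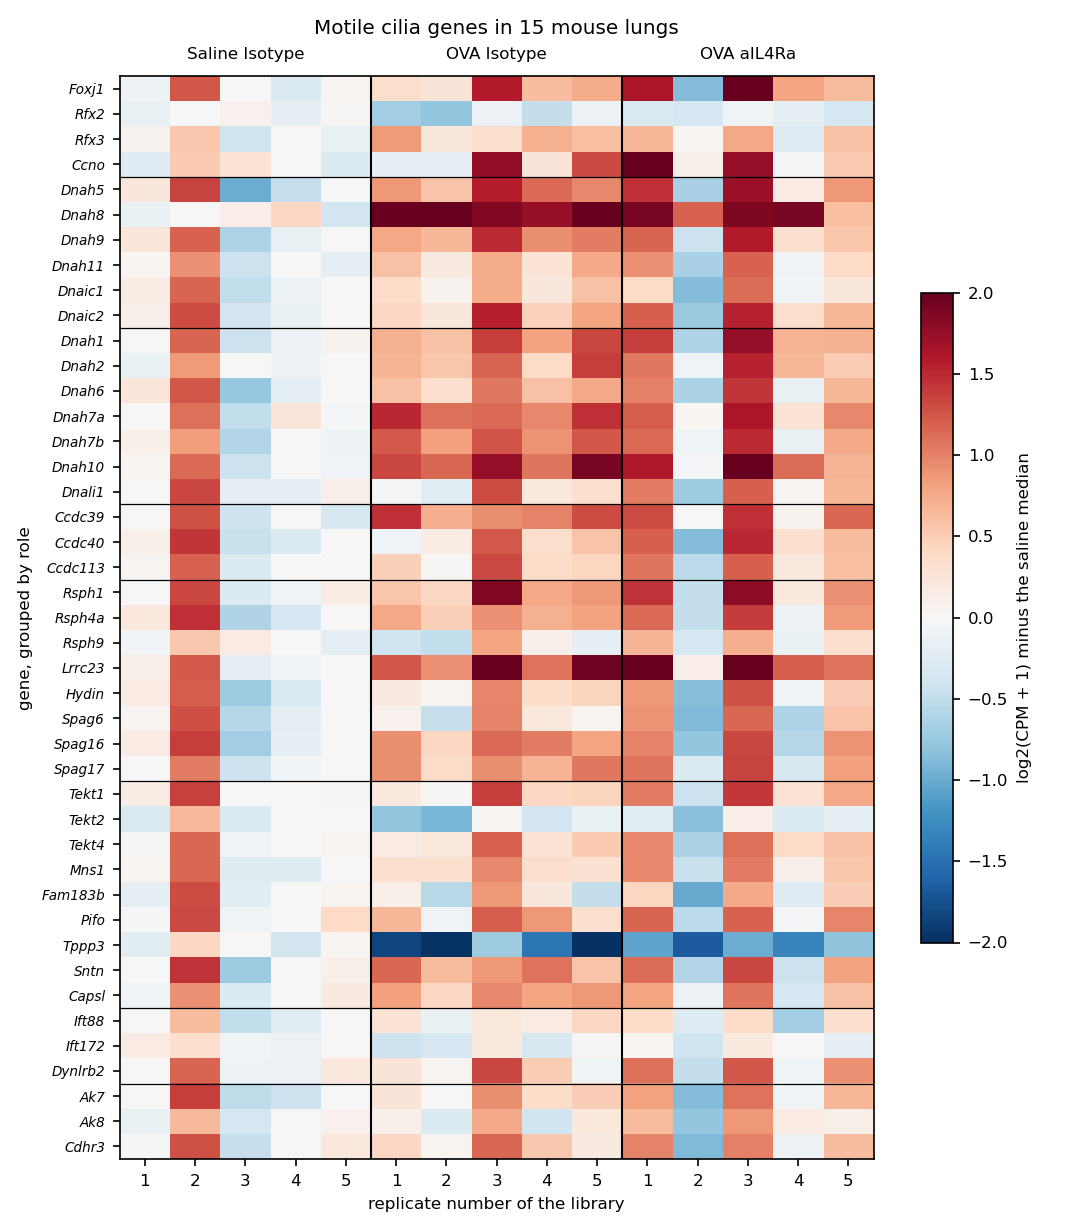
Levels of 43 motile cilia genes (rows, by role from regulators at the top to kinases and a surface protein at the bottom) in 15 lungs (columns, by group and replicate), as log2(CPM + 1) minus the median of the saline libraries; the colour scale ends at 2 above and below. Saline replicate 2, OVA replicate 3 and anti-IL-4Ra replicates 1 and 3 are high for most rows, while Dnah8 and Tppp3 separate the saline libraries from the rest.

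Markers of other cells also differed between those libraries. Summed club cell markers (11 genes) reached 31307 CPM in saline replicate 2 against 13292 to 19985 in the other saline libraries. Summed goblet cell markers (9 genes) reached 288 CPM there against 12.9 to 127, 8913 in OVA replicate 3 against 1418 to 4317, and 6153 and 6389 in anti-IL-4Ra replicates 1 and 3 against 466 in replicate 2. A list of airway cartilage markers also peaked in saline replicate 2 (42.2 CPM), OVA replicate 3 (132) and anti-IL-4Ra replicate 1 (88.3). It was carried by Chad, while the defining cartilage genes Col2a1 and Acan had only 11 and 15 counts over all saline libraries and 9 and 7 over all OVA Isotype libraries. The same 3 lists summed to 6046, 466 and 8.68 CPM in anti-IL-4Ra replicate 2, where the cilia genes were lowest. Club cell markers did not peak with the cilia genes in that group, at 10865 and 12331 CPM in replicates 1 and 3 and 17330 in replicate 5. Summed general epithelial markers (6 genes) were 1146 CPM in saline replicate 2 against 623 to 850 in the other saline libraries. They were 918 CPM in OVA replicate 3 against 409 to 716 in the other OVA Isotype libraries. Under anti-IL-4Ra they were 849 and 813 CPM in replicates 1 and 3, 667 in replicate 5 and 491 in replicates 2 and 4.

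Markers from outside the airway epithelium differed as well. Saline replicate 2 had the highest alveolar type 2 sum of its group (18936 CPM). Its alveolar type 1 sum was also the highest, at 5031 CPM, close to 4999 in saline replicate 5. Anti-IL-4Ra replicate 2 had the highest alveolar type 2 (16952 CPM) and endothelial (3260.4 CPM) sums of its group and, at 3024 CPM, an alveolar type 1 sum close to the highest (3030.2 CPM in replicate 5). OVA replicate 3 had the highest smooth muscle (1044 CPM), cardiac muscle (1306 CPM) and fibroblast (2695 CPM) sums of its group. Saline replicate 2 had the lowest sums of its group for the same lists, at 483, 387 and 1398 CPM. Neither anti-IL-4Ra replicate 1 nor 3 was highest for any of them. White blood cell sums were the lowest of their group in saline replicate 2 (595 CPM) and OVA replicate 3 (743 CPM), but not in anti-IL-4Ra replicates 1 or 3. No marker list was at 0 throughout. The part of what these markers track in the cilia gene levels was not tested.

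**Figure D2:**
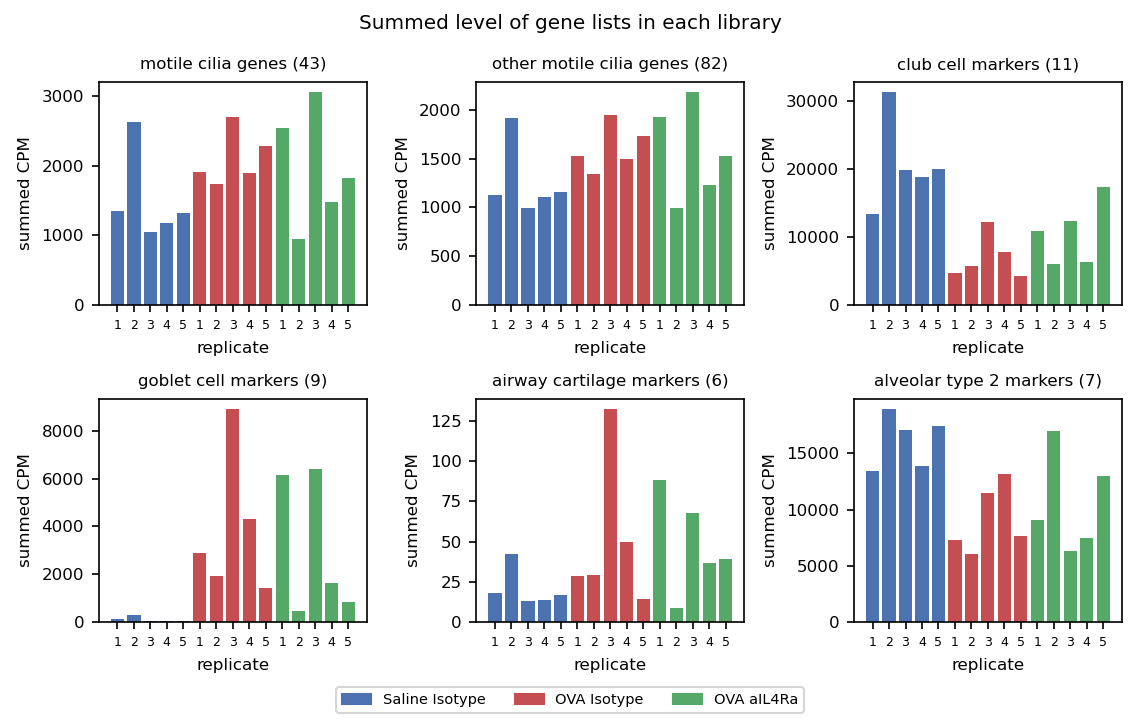
Summed CPM of 6 gene lists (number of genes in brackets) in each of 15 libraries, coloured by group, on linear axes that start at 0. All 6 lists have their highest saline sum in replicate 2, and goblet markers reach at most 288 CPM in a saline library.

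In allergen lungs, 5 of the 43 cilia genes were higher than in saline lungs and 2 were lower. The dynein heavy chain gene Dnah8 rose 4.45-fold, Dnah10 2.39-fold, Dnah7a and Dnah7b about as far as each other, and the radial spoke gene Lrrc23 2.48-fold. Tppp3 fell 2.89-fold and Rfx2 1.32-fold. The 7 calls are 16.3% of the genes, below the 37.1% of all tested genes that were called (19.3% higher and 17.8% lower). The median log2 fold change was 0.38, against 0.02 over all genes, and 36 of 43 estimates were above 0. Single libraries moved that median, to 0.12 without OVA replicate 3, 0.23 without saline replicate 3 and 0.65 without saline replicate 2.

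The count depended on saline replicate 2. Without it, 15 genes were called higher and 1 lower (all genes: 32.6% called), and leaving out OVA replicate 3 as well gave 13 higher and 2 lower (35% of all genes called). The added calls without saline replicate 2 were Rfx3, Dnah1, Dnah2, Dnah5, Dnah9, Ccdc39, Rsph4a, Spag17, Sntn and Capsl. With the log2 share of Rn45s as a covariate, 1 gene was called higher, Dnah8, and none lower, while 4.73% of all genes were called.

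Among the 4 regulators none was called higher, though 3 of the 4 estimates were above 0. Foxj1, the forkhead factor that starts the motile cilia program, stood at 39.1, 100.4, 41.9, 34 and 43.1 CPM with saline, 53.7, 50.2, 129, 64.9 and 70.5 CPM with OVA and 132, 22.6, 172, 73.5 and 65.9 CPM with anti-IL-4Ra. Saline replicate 2 lay above 4 of the 5 OVA libraries, so the groups overlapped. The log2 fold change of Foxj1 with OVA was 0.51 ± 0.44 (95% interval -0.44 to 1.46, adjusted p = 0.38), an interval wide enough to hold more than a doubling. Rfx3, an X-box factor, was at 37.6, 52.4, 26.9, 35.8 and 32.3 CPM with saline and 65.3, 41.8, 46.1, 59.5 and 55 CPM with OVA. Its log2 fold change of 0.53 ± 0.21 missed the threshold (adjusted p = 0.058), and passed it without saline replicate 2, OVA replicate 2 or anti-IL-4Ra replicate 4.

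Rfx2, the other X-box factor, moved the opposite way. It was at 14.6, 16.4, 17.4, 14.5 and 16.7 CPM with saline and 9.7, 9.18, 15, 11.4 and 15.1 CPM with OVA. The fall of -0.40 ± 0.15 on the log2 scale was small (adjusted p = 0.044), the top 2 OVA libraries lay within the saline range, and the call was lost without any 1 of saline replicates 1, 2, 3 and 5 or OVA replicates 1, 2 and 4. Rfx2 is also transcribed in cells without motile cilia, and it did not share the high value of saline replicate 2. Ccno, a cyclin-like protein needed to multiply basal bodies, was at 1.43, 3.18, 2.52, 1.91 and 1.4 CPM with saline and 1.59, 1.57, 8.98, 2.46 and 6.26 CPM with OVA. OVA replicates 3 and 5 were high and the other 3 within the saline range, and the log2 fold change of 0.99 ± 0.57 was not called (adjusted p = 0.19).

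The dynein arms held 4 of the 5 higher calls, all of them heavy chains, the motor subunits that hydrolyse ATP. These 4 are 40% of the 10 heavy chains, and 37.1% of all tested genes were called (19.3% higher). All 10 heavy chains measured had estimates above 0, from 0.38 to 2.15 on the log2 scale. Their median was 0.79, against 0.21 over the other 33 cilia genes. Of those 33, 1 was called higher and 2 lower (9.09% called), and 26 estimates were above 0 and 7 below. The 10 share the libraries and their variation, so they are not 10 separate observations. The intermediate and light chain genes Dnaic1, Dnaic2 and Dnali1 were not called.

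Dnah8, an outer arm heavy chain best known from the sperm tail, was at 67.8, 74.5, 82.2, 99.9 and 56.9 CPM with saline, 296, 414, 271, 252 and 464 CPM with OVA and 279.5, 170.2, 274, 281 and 114 CPM with anti-IL-4Ra. Every OVA and every anti-IL-4Ra library lay above every saline library. The log2 fold change with OVA was 2.15 ± 0.26 (95% interval 1.59 to 2.72, adjusted p = 4.6e-05), and it was called when any 1 library was left out. Dnah8 did not follow the other cilia genes between saline or OVA Isotype animals. Its level in saline replicate 2 was 0.99 times the median of the other saline libraries, and in OVA replicate 3, high for most cilia genes, it was 0.76 times the median of the other OVA libraries. Under anti-IL-4Ra it followed them in part, at 1.26 and 1.22 times the median of the others in replicates 1 and 3 and 0.61 times in replicate 2, but 1.27 times in replicate 4 and 0.41 times in replicate 5.

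The inner arm chain Dnah10 was at 29.3, 62.8, 20.6, 28.2 and 26.6 CPM with saline and 72.8, 63.8, 97.1, 60.5 and 108 CPM with OVA. Saline replicate 2 was the only saline library to reach into the OVA range, and the log2 fold change was 1.26 ± 0.35 (adjusted p = 0.011). Dnah7a and Dnah7b, near-identical inner arm genes whose reads can be exchanged by the counting, gave 1.00 ± 0.31 (adjusted p = 0.021) and 0.99 ± 0.31 (adjusted p = 0.019). Dnah7a was at 19.3, 42.8, 13.4, 23.1 and 18.9 CPM with saline and 56.5, 42.5, 43.3, 38.6 and 54.8 CPM with OVA. Again only saline replicate 2 overlapped, and the call of Dnah7a was lost, at an adjusted p of 0.050 to 0.053, without saline replicate 1, 3 or 5. Dnah6, another inner arm chain, was not called, with 138, 275, 68, 101 and 116 CPM with saline and 176, 147, 242, 175 and 196 CPM with OVA, a log2 fold change of 0.42 ± 0.37 and an adjusted p of 0.4.

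Heavy chain transcripts are among the longest in the genome, 12245 to 16685 bases here, against a median of 2458 for the other cilia genes. The 12 cilia genes with transcripts over 8000 bases had a median log2 fold change of 0.76, and those in 4 bins of shorter transcripts had medians of 0.18 to 0.26. Over all tested genes of the same 5 length bins, the medians stayed between -0.05 and 0.02. Above 8000 bases, 33.3% of the cilia genes were called, against 38.7% of all tested genes. A length was matched for all 43 cilia genes and for 93.8% of tested genes.

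Exons of 16 cilia genes overlap a gene on the opposite strand in the GENCODE annotation. They include Dnah8, with the noncoding genes 1700097N02Rik and AC165951.2, and Dnah10, with Gm43777. The libraries were strand-specific per the labels' protocols, but whether counting used the strand had not been given in the sources used here. The estimated counts of Dnah8, Dnah7a and Dnah7b were not whole in any of the 15 libraries, as happens where reads are shared among genes by an estimate.

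Of the 8 radial spoke and central pair genes 1 was called. Lrrc23, a radial spoke protein, was at 16.4, 36.4, 13.1, 14.4 and 15 CPM with saline, 36.7, 29.2, 78.2, 33 and 60.2 CPM with OVA and 65.4, 16.5, 78.2, 35.5 and 33.1 CPM with anti-IL-4Ra. Saline replicate 2 lay within the OVA range and the other 4 saline libraries below it. The log2 fold change was 1.31 ± 0.41 (adjusted p = 0.019), and without OVA replicate 3 it was 1.00 (adjusted p = 0.060). Hydin, a large central pair protein lost in some forms of primary ciliary dyskinesia, was at 74.2, 154, 40.0, 53.4 and 65.9 CPM with saline and 75, 68.3, 130.0, 85.5 and 90.0 CPM with OVA, which overlapped. Its log2 fold change of 0.21 ± 0.38 was not called (adjusted p = 0.68).

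Ruler proteins of the axoneme set the repeat along which dynein arms and spokes attach. None of the 3 ruler and nexin link genes, Ccdc39, Ccdc40 and Ccdc113, was called. Ccdc40 was at 21.9, 56.1, 14.6, 16.5 and 20.3 CPM with saline and 19.2, 22.7, 48.6, 26.3 and 30.7 CPM with OVA. Each group had 1 library far above its others, saline replicate 2 and OVA replicate 3, and the log2 fold change was 0.19 ± 0.43 (adjusted p = 0.76). Among 3 transport genes, Ift172, part of the intraflagellar transport particle also used by immotile cilia, was at 74.6, 83.8, 63.6, 61.1 and 66.2 CPM with saline and 49.3, 52.3, 75.9, 52.7 and 67.5 CPM with OVA (-0.23 ± 0.14 on the log2 scale, adjusted p = 0.22). Cdhr3, a cadherin of the ciliated cell surface that serves rhinovirus C as a receptor in people, was at 25, 62.5, 18.1, 25.3 and 29.6 CPM with saline and 34, 26.3, 57.1, 37.4 and 28.8 CPM with OVA. With 0.19 ± 0.37 on the log2 scale it was not called (adjusted p = 0.71), nor were the adenylate kinases Ak7 and Ak8.

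The 9 tektins and doublet or tip proteins held the largest fall. Tppp3, a tubulin-binding protein abundant in ciliated cells and also found in connective tissue cells, was at 209, 324, 244, 189 and 254 CPM with saline, 68, 61.3, 148, 89 and 55.4 CPM with OVA and 117, 76.4, 123, 96.2 and 139 CPM with anti-IL-4Ra. Every saline library lay above every allergen library. The log2 fold change with OVA was -1.53 ± 0.25 (95% interval -2.08 to -0.98, adjusted p = 4.0e-04), called in each fit that left out 1 library. Dnah8 and Tppp3 were the only cilia genes whose CPM did not overlap between OVA and saline, against 26.6% of all genes (12.1% higher and 14.5% lower).

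**Figure D3:**
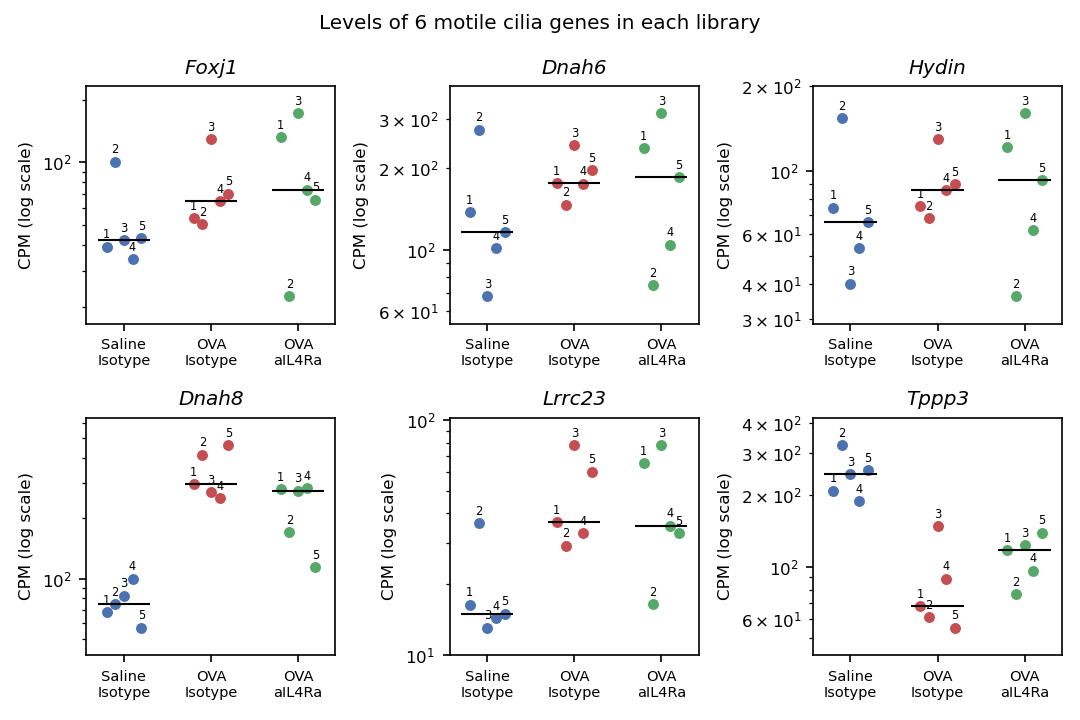
CPM of 6 motile cilia genes on a log axis, 1 point per library labelled with its replicate number, with the group median as a line. Foxj1, Dnah6, Hydin and Lrrc23 share their highest saline library, replicate 2, and overlap between groups, while all OVA libraries lie above the saline libraries for Dnah8 and below them for Tppp3.

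Because most cilia genes rose and fell together between animals, each was also set against the median of the others in the same library, on the log2(CPM + 1) scale. This ratio shows unequal change and not which gene changed. With it, 3 genes stood above their saline range in every OVA library and 6 stood below it. The share of all genes apart by the same measure was 10.6%, which is no like baseline, because the division takes shared variation out of the cilia genes and adds it to other genes. Nothing is read from it. The higher were Dnah8, Dnah10 and Lrrc23, and the lower were Tppp3, Dnaic1, Tekt2, Tekt4, Fam183b and Ak8, named here after their values were seen. For Lrrc23 the relative level was -0.20 to 0.008 with saline and 0.36 to 1.02 with OVA, and for Dnah10 it was 0.58 to 0.83 and 1.22 to 1.85. For Tppp3 it was 3.11 to 4.08 and 0.90 to 1.86. In anti-IL-4Ra libraries against saline, Lrrc23 stayed apart above and Tppp3 and Fam183b below (1.45% of all genes, with the same limit).

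Between anti-IL-4Ra and isotype antibody in allergen lungs, none of the 43 cilia genes was called by edgeR, where 0.302% of all genes (48) were (0.138% higher and 0.163% lower). Only Dnah8 had an unadjusted p under 0.05, so 1 of the 43, and DESeq2 called none. The median log2 fold change was -0.0006, with 21 estimates above and 22 below 0. It ranged from -0.21, without anti-IL-4Ra replicate 3, to 0.22, without OVA replicate 3, so its place near 0 depended on single libraries. None of the cilia genes separated the groups in CPM, against 1.17% of all genes (0.509% higher and 0.66% lower). All 10 heavy chain estimates were below 0, with a median of -0.17, and the median of the other 33 genes was 0.07. The OVA Isotype libraries enter this comparison and that of OVA with saline with opposite signs. The estimates of these comparisons are therefore not independent, and the 10 are not separate observations.

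Dnah8 had the largest of these estimates, -0.60 ± 0.25 (95% interval -1.14 to -0.06, adjusted p = 0.72). Its 5 anti-IL-4Ra libraries spread from 114 to 281 CPM and overlapped the OVA Isotype libraries, which began at 252. For Foxj1 the estimate was 0.34 ± 0.44, with an interval from -0.61 to 1.29, so neither a fall nor a doubling lay outside it. Tppp3 gave 0.38 ± 0.25 with an interval of -0.15 to 0.92. Lrrc23 gave -0.05 ± 0.40 with an interval of -0.92 to 0.81. A p that misses the threshold does not show that the groups had the same levels, and the spread under anti-IL-4Ra was the widest of the 3 groups.

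Against saline, anti-IL-4Ra lungs had 3 cilia genes higher and 1 lower, 9.3% of 43 against 26.6% of all genes (13.9% higher and 12.7% lower). Dnah8 was 1.55 ± 0.25 higher on the log2 scale (adjusted p = 6.6e-04), Lrrc23 1.26 ± 0.41 (adjusted p = 0.032) and Dnah10 1.01 ± 0.35 (adjusted p = 0.044). Tppp3 was lower by -1.15 ± 0.25 (adjusted p = 0.0043). Dnah8 and Tppp3 again did not overlap in CPM, against 19.8% of all genes (9.53% higher and 10.3% lower). This comparison and that of OVA with saline share their saline libraries. Without saline replicate 2, 9 genes were called higher (22.3% of all genes called), and without anti-IL-4Ra replicate 2, 6 were (28.1%). Dnah8 alone was called higher without saline replicate 1, 3, 4 or 5 or anti-IL-4Ra replicate 1 or 3. Those fits called 17.8 to 25.5% of all genes. With the Rn45s covariate no cilia gene was called in either direction, and only 2.35% of all genes were called.

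**Figure D4:**
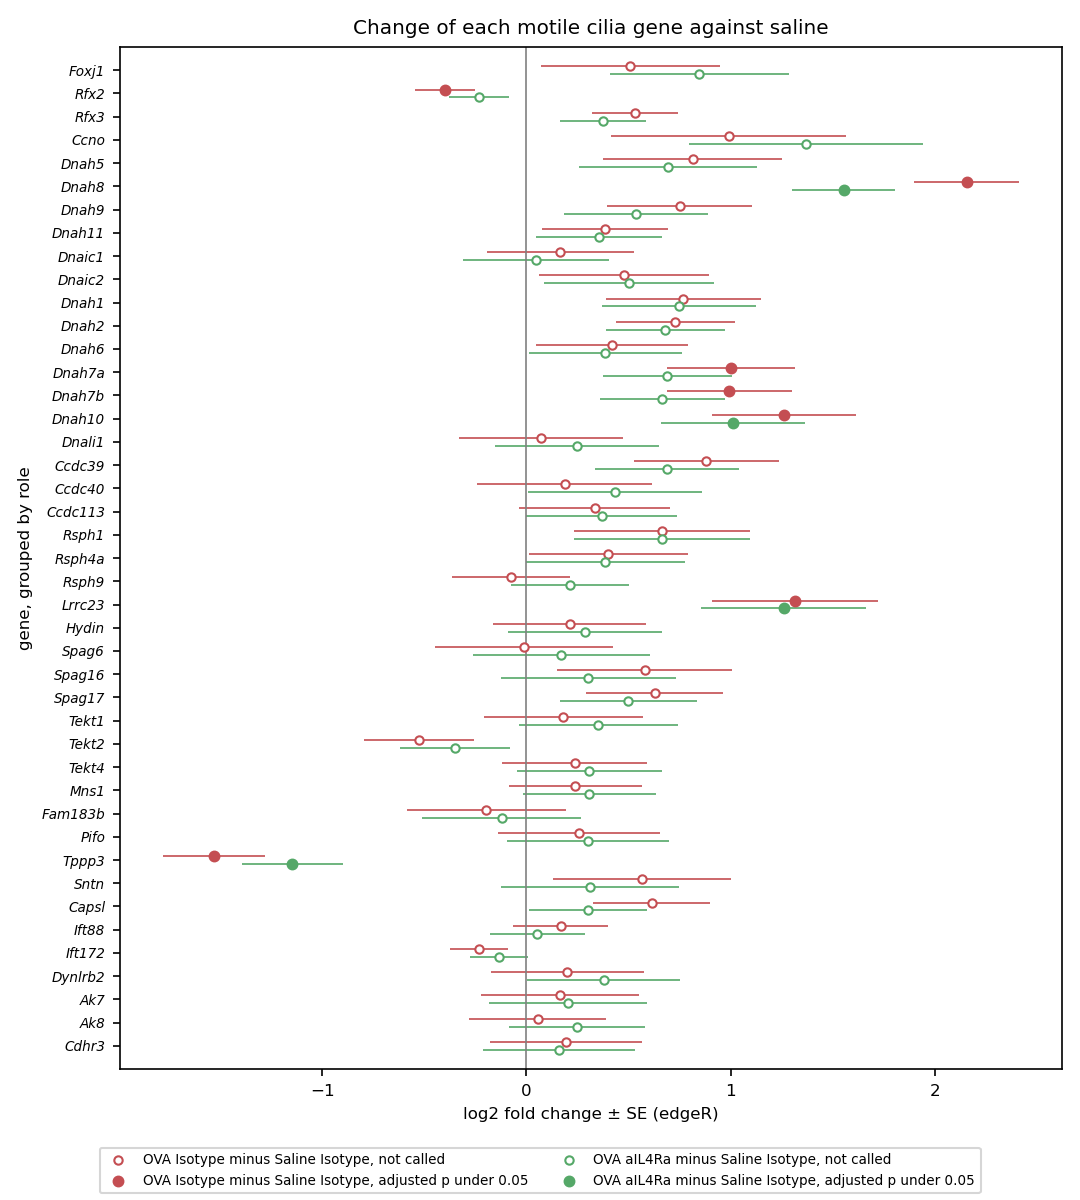
Log2 fold change ± SE of each of 43 motile cilia genes, OVA Isotype (red) and OVA aIL4Ra (green) each against Saline Isotype, with filled points for an adjusted p under 0.05. Most estimates lie between 0 and 1 and are not called; Dnah8 stands out to the right and Tppp3 to the left.

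A further list of motile cilia genes, with 81 tested of 88 listed, gave 15 higher and 2 lower with OVA against saline (21% called, against 37.1% of all genes), a median of 0.33, and none called between the antibodies. The 8 regulators of multiciliation, which act above or beside Foxj1, held 5 of the 15. Foxn4, a forkhead factor of basal body docking, was at 0.226, 0.853, 0.151, 0.218 and 0.305 CPM with saline and 0.379, 0.496, 4.86, 0.957 and 2.46 CPM with OVA, from 40 and 121 counts in all. OVA replicates 3 and 5 carried most of the rise of 2.32 ± 0.76 (adjusted p = 0.026), and its call was lost without saline replicate 1, 3, 4 or 5 or OVA replicate 3 or 5. Ccdc67, also named Deup1, a protein of the deuterosome on which new centrioles form, was at 1.51, 5.19, 2.83, 2.29 and 1.89 CPM with saline and 8.34, 4.46, 21.3, 6.16 and 10.9 CPM with OVA. Its log2 fold change of 1.89 ± 0.52 (adjusted p = 0.0099) was called whichever library was left out.

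Mcidas, the coactivator that commits a cell to many cilia, rose by 1.86 ± 0.64 (adjusted p = 0.032) from 0.538 ± 0.311 to 1.97 ± 1.53 CPM (SD, n = 5). Its call was lost without saline replicate 1, 3 or 5 or OVA replicate 3 or 5. The 2 lower genes were Tekt5, a tektin, by -1.28 ± 0.29 (adjusted p = 0.003), and Ttc21b, a transport subunit, by -0.30 ± 0.10 (adjusted p = 0.033), the latter lost without saline replicate 1 or 5 or OVA replicate 1, 2 or 5. Against saline, anti-IL-4Ra lungs had 9 of the 81 higher and 1 lower (12.3% called, against 26.6% of all genes). Foxn4 was at 4.63, 0.826, 5.73, 1.14 and 1.53 CPM there and Ccdc67 at 18.3, 4.75, 18.8, 4.24 and 6.82 CPM, both higher in replicates 1 and 3 than in the other 3. Their log2 fold changes were 2.90 ± 0.76 (adjusted p = 0.011) and 1.93 ± 0.52 (adjusted p = 0.013). With the Rn45s covariate, none of Foxn4, Ccdc67, Mcidas and Tekt5 was called in either comparison with saline. Of all genes, 4.73% with OVA and 2.35% with anti-IL-4Ra were then called.

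The epithelial lists beside these moved otherwise. Of 11 club cell markers 6 were called lower with OVA and none higher, of 9 goblet cell markers all 9 were higher, and of 6 general epithelial genes none was called. Of the 11 club estimates 2 were above 0, the larger for Scgb3a1 (2.70 ± 1.04 on the log2 scale, adjusted p = 0.052). Of 7 markers each, 6 for alveolar type 1 and 5 for alveolar type 2 cells were lower. Over all genes, 19.3% were called higher and 17.8% lower. Of 7 white blood cell markers 4 were called higher with OVA and 1 lower, the latter by -2.07 on the log2 scale. Their sums were 595 to 784 CPM with saline and 743 to 1651 CPM with OVA. Their part in the cilia gene levels was not tested.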

How the data were processed

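RNA of 15 whole mouse lungs was measured, 5 per group. Per the labels' protocols, strand-specific dUTP libraries were made. The authors deposited expected counts per gene symbol, without normalization. Bowtie2 2.1.0 and RSEM 1.2.15 are named in the submitters' processing notes. These name hg38, but 22542 of 24054 symbols are current mouse symbols and 1372 older ones, so values were read as mouse genes. The annotation had not been given in the sources used here.

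Expected counts were rounded. Genes were kept by filterByExpr (15905), scaled by TMM and fitted over all 15 libraries with edgeR 4.0.16 (quasi-likelihood, two-sided, R 4.3.3). P-values were adjusted by Benjamini-Hochberg over all genes tested. SE came from the F statistic, and 95% intervals used 12 residual degrees of freedom. Log2 levels used a pseudocount of 1 CPM. At these depths precision was limited by the spread between animals, since replicates are labelled as biological. No pair of libraries agreed within sampling noise. The fit was tested on simulated counts in which genes varied independently. The simulation therefore did not hold the variation that the cilia genes share, and nothing about their calls is read from it.

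The genes and lists were chosen with earlier results of these data known. Named are genes called (up to 12 per comparison and direction), the 4 regulators, the member with the highest mean CPM of each other role group, genes with an outlying library, and, of further cilia genes, the 3 largest called changes per direction. Alternatives were DESeq2 1.42.0, RLE factors, no filter, 2 groups only, a replicate block, Rn45s left out or as a covariate, each library left out, and, chosen after seeing the data, saline replicate 2 and OVA replicate 3 left out together. Promoters and gene lengths came from RefSeq and GENCODE by symbol.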

Additional observations from a re-analysis of the deposited data

Results flagged for a closer look

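Saline replicate 2 stood far above the other 4 saline libraries in 28 of the 43 cilia genes, by a gap to the next library of more than 0.71 of the whole range of the group (Dixon's test at 95%). Chance marks about 5% of such groups where values are normally distributed, and the test was made on CPM. The share of all tested genes marked in this way is not given here. The 43 genes vary together, so the marks are not separate events. Of the regulators only Foxj1 stood out there, at 100.4 CPM. Among the outer arm dynein genes these were Dnah11 68.6 CPM, Dnaic1 20.7 CPM and Dnaic2 30.7 CPM. Among the inner arm dynein genes these were Dnah1 43.9 CPM, Dnah2 32.9 CPM, Dnah10 62.8 CPM and Dnali1 40.7 CPM. Among the ruler and nexin link genes these were Ccdc39 41.3 CPM, Ccdc40 56.1 CPM and Ccdc113 17.7 CPM. Among the spoke and central pair genes these were Rsph1 31.2 CPM, Rsph4a 62.1 CPM, Lrrc23 36.4 CPM, Spag6 32.9 CPM, Spag16 38.6 CPM and Spag17 36.1 CPM. Among the tektins and doublet or tip genes these were Tekt1 21.2 CPM, Tekt2 12.1 CPM, Tekt4 14.8 CPM, Mns1 21.9 CPM, Fam183b 35.2 CPM, Pifo 15.2 CPM, Sntn 20.9 CPM and Capsl 17.6 CPM. Of the transport genes Dynlrb2 stood at 36.8 CPM. Among the kinase and surface genes these were Ak7 65.6 CPM and Cdhr3 62.5 CPM.

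OVA replicate 3 stood above the other OVA Isotype libraries in the same way in 7 genes, Foxj1 (129 CPM), Dnali1 (39.5 CPM), Ccdc113 (19.7 CPM), Rsph1 (44.8 CPM), Tekt1 (21.4 CPM), Tekt4 (15.1 CPM) and Mns1 (19 CPM). No cilia gene had such a library under anti-IL-4Ra, where replicates 1 and 3 were both high. Of the further cilia genes named, Foxn4 stood out in saline replicate 2, at 0.853 CPM. The summed club, goblet and airway cartilage markers in these libraries are given above, and their part was not tested.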

How the results depend on the processing

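Of the counts and medians recomputed under the alternatives, 245 were labelled as near their size and 31 as moved. The rule was loose. A median was labelled as near where it shifted by less than the SD between libraries, so the shifts of medians given above are among the 245. Counts that were 0 in both fits are among them too. Leaving out 1 library in turn, members called with OVA against saline ranged from 4 to 15 higher and from 1 to 4 lower. With anti-IL-4Ra against saline they ranged from 1 to 9 higher. These fits called 29.8 to 41.4% of all genes with OVA and 17.8 to 29.2% with anti-IL-4Ra. The 15 and the 9 came without saline replicate 2 (32.6% and 22.3% of all genes called). The 4 lower genes (Rfx2, Tekt2, Tppp3, Ift172) came without OVA replicate 3 (39.9% of all genes called). Only Tppp3 was called lower without saline replicates 1, 2, 3 or 5 or OVA replicates 1, 2 or 4. Against saline under anti-IL-4Ra, 6 were higher without anti-IL-4Ra replicate 2, and only Dnah8 without saline replicates 1, 3, 4 or 5 or anti-IL-4Ra replicates 1 or 3. Leaving out saline replicate 2 and OVA replicate 3 together gave 13 and 11 higher (35% and 22.7% of all genes called). With only the 2 groups compared, 8 were higher and 1 lower with OVA (38.2% of all genes called). With the Rn45s covariate 1 and 0 were higher and 0 and 0 lower, and the genes called overall were 752 and 373. DESeq2 called 132 genes overall between the antibodies. Estimates near 0 turned in sign without 1 library. With OVA against saline, Ccdc40 ranged from -0.12 to 0.65, Hydin from -0.010 to 0.58 and Cdhr3 from -0.071 to 0.55, each lowest without OVA replicate 3. With anti-IL-4Ra against saline, Cdhr3 ranged from -0.025 to 0.52. Between the antibodies, Lrrc23 ranged from -0.34 to 0.22 (0.20 without both libraries above), Foxj1 from -0.0033 to 0.66 and Ccno from -0.047 to 0.91. None of these was called. Except where fewer libraries or genes entered, the cause was not tested.

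Little sign of pairing was seen between animals with equal replicate numbers. Over 15 pairs of libraries with the same number in different groups, deviations from the group means correlated at r = -0.60 to 0.37. Of these correlations 2 were over 0.1, and in 2 of 30 cases a library correlated best with its own number. Such correlations cannot show that no handling was shared. With the replicate block, 3 members were higher with OVA and 1 with anti-IL-4Ra against saline. The calls of Dnah7a and Lrrc23 were lost in the former, and those of Dnah10 and Lrrc23 in the latter. Fewer calls were also made among all tested genes. For OVA against saline 29.1% of them were called, where the share without the block was 37.1%. For anti-IL-4Ra against saline the block gave 18.2%, against 26.6% without it. Between the antibodies, 26 of all tested genes were called.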
